A study of Mus musculus with 7 samples.

Results

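The genes described are 50 mouse genes that copy the DNA and support S phase, in slices of mouse liver kept in culture with or without valproic acid (VPA). They were chosen by symbol: every row of the gene count table whose Ensembl gene carries one of the 50 symbols in the GENCODE annotation of GRCm38, which found 50 of 50 among the 55487 genes in the table. Precision-cut liver slices (PCLS), 250 µm thick and 3 mm wide, came from healthy male Balb/c mice aged 12 to 30 weeks, and RNA was collected on day 3 of culture. The 3 CTR libraries came from slices in regular Williams' Medium E with 0 mM VPA, and the 4 VPA libraries from slices in the same medium with 2.5 mM VPA. VPA is an inhibitor of class I histone deacetylases, enzymes that take acetyl groups off histones, and the comparison asks what its presence in the medium goes along with. A slice holds hepatocytes, stellate cells, endothelium, macrophages and bile duct cells together, in tissue that has been cut and is no longer perfused, and the labels do not say which slices came from the same mouse. The methods of the study define a biological repeat as a different liver, and the titles of a group carry different slice culture numbers. Numbers 71, 72 and 74 each occur in both groups, and 73 in VPA only. What they stand for is not given, and the main test did not pair the libraries.

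DNA replication starts at origins that are licensed in G1. The origin recognition complex, with Cdc6 and Cdt1, loads a ring of the proteins Mcm2 to Mcm7 around the DNA, and geminin (Gmnn) keeps Cdt1 from loading it again. In S phase Cdc45 and the GINS proteins join the ring and make it an active helicase, the clamp Pcna and its loader RFC hold the polymerases on the template, and RPA covers single-stranded DNA. Fen1 and Lig1 process and join Okazaki fragments, ribonucleotide reductase and Tyms supply nucleotides, and the CAF-1 complex of Chaf1a and Chaf1b puts new histones behind the fork. Many of these genes are known targets of E2F transcription factors, which retinoblastoma proteins hold back in resting cells. The adult hepatocyte is mostly out of the cycle, so such transcripts are scarce in liver unless it regenerates.

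The libraries held 1743675 to 4773750 counts on genes in CTR and 1400887 to 3102450 in VPA. Levels are given as CPM, the counts divided by the TMM-scaled library size and multiplied by 1e6. A count of 0 allows a level of up to 0.579 to 2.37 CPM by library (3 counts), for counting error only. The library kit reads the 3′ end of each RNA, so counts do not grow with the length of a gene and CPM were not divided by it. Libraries of the same group differed by more than counting error (chi-square per degree of freedom 14.7 to 27.3), and the common coefficient of variation between libraries was 0.609. A count of 0 in 1 library beside at least 20 counts in another of the same group occurred for 13 of the 32 members tested and for 21.0% of all genes tested.

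Mcm3, Mcm4, Mcm5 and Mcm6, which are 4 of the 6 subunits of the replicative helicase ring, were lower in each VPA library than in any CTR library, while Mcm2 and Mcm7 overlapped between the groups. Chaf1a, the large subunit of CAF-1, and Mcm4 had at least 10 counts in every CTR library and no count in any VPA library. Mcm10, a helicase activator counted too little to be tested, and Pold1, the catalytic subunit of polymerase delta, were also lower without overlap. No member was higher in VPA without overlap, which held for 4.46% of all genes tested. With edgeR's quasi-likelihood test and Benjamini-Hochberg adjustment over 10876 genes, 0 of the 32 members tested had an adjusted p under 0.05 (0.00919% of all genes tested, which is 1 gene). At an unadjusted p under 0.05 in the same test, 3 members were lower (Mcm3, Mcm4 and Chaf1a), where the share of all genes tested was 4.62%, and 0 were higher, where it was 3.65%. DESeq2, the tool the study names, gave 2 members an adjusted p under 0.05, both lower (Mcm4 and Chaf1a), where 0.754% of the genes with an adjusted p were called lower and 0.256% higher. Groups without overlap, lower in VPA, were found for 6 of the 32 members tested and for 7.38% of all genes tested. Counted over genes with a count in any library, 7 members, Mcm10 among them, stood so beside 4.77% of genes. Leaving out the members that overlap a gene on the other strand, Chaf1a and Pold1 among them, an alternative chosen after seeing the data, left 19 members tested, of which 4 were lower without overlap and 2 were lower at an unadjusted edgeR p under 0.05. Mcm4, Mcm5, Mcm6 and Chaf1a passed the filter on low counts through the CTR libraries, with 3 CTR libraries over its minimum and at most 1 VPA library, so these counts are a description. With at least 10 counts in every library, which left 13 members, Mcm3 was the 1 member with an unadjusted edgeR p under 0.05 (6.22% of the 6652 genes left were so, in the lower direction) and the 1 without overlap (7.04%). Leaving out CTR replicate 3, the CTR library with the fewest members counted, gave 14 of 40 members tested lower without overlap, where 10.3% of all genes tested then were. Leaving out any other library gave 6 to 8 members and 9.25% to 13.9% of genes. Without CTR replicate 3, 5 members were lower at an unadjusted edgeR p under 0.05 (3.17% of genes), and without VPA replicate 1 it was 6 of 36 (4.24%). In bulk samples fewer cells of a type and less RNA per cell cannot be told apart.

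Over the 32 members tested, the median log2 fold change of VPA against CTR was −0.34, with 22 below 0 and 10 above, while the median of all genes tested was −0.06 with 54.2% below 0. The median was the same with Mcm4 and Chaf1a, which had no VPA count, set at the bound their floor allows. Both stay below the median at that bound, so this step could not move it. Leaving out CTR replicate 2 alone moved it to −0.20, with −0.04 for all genes tested. The 18 members that did not pass edgeR's filter on low counts were Orc1, Cdc6, Gmnn, Cdc45, Gins1, Gins2, Mcm10, Rfc4, Pola2, Prim1, Pole, Pole2, Rrm2, Asf1b, Uhrf1, Ccne2, E2f2 and Chek1. Together the 50 members took 0.0851% to 0.111% of the counts in the CTR libraries and 0.0589% to 0.0688% in the VPA libraries, so the groups did not overlap. Their summed level was 982, 1022 and 799 CPM in CTR (mean 935 ± 119, SD, n = 3) and 604, 647, 651 and 697 CPM in VPA (650 ± 38, SD, n = 4). Without Chaf1a the CTR sums were 915, 970 and 765 CPM, and the groups still did not overlap.

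**Figure D1:**
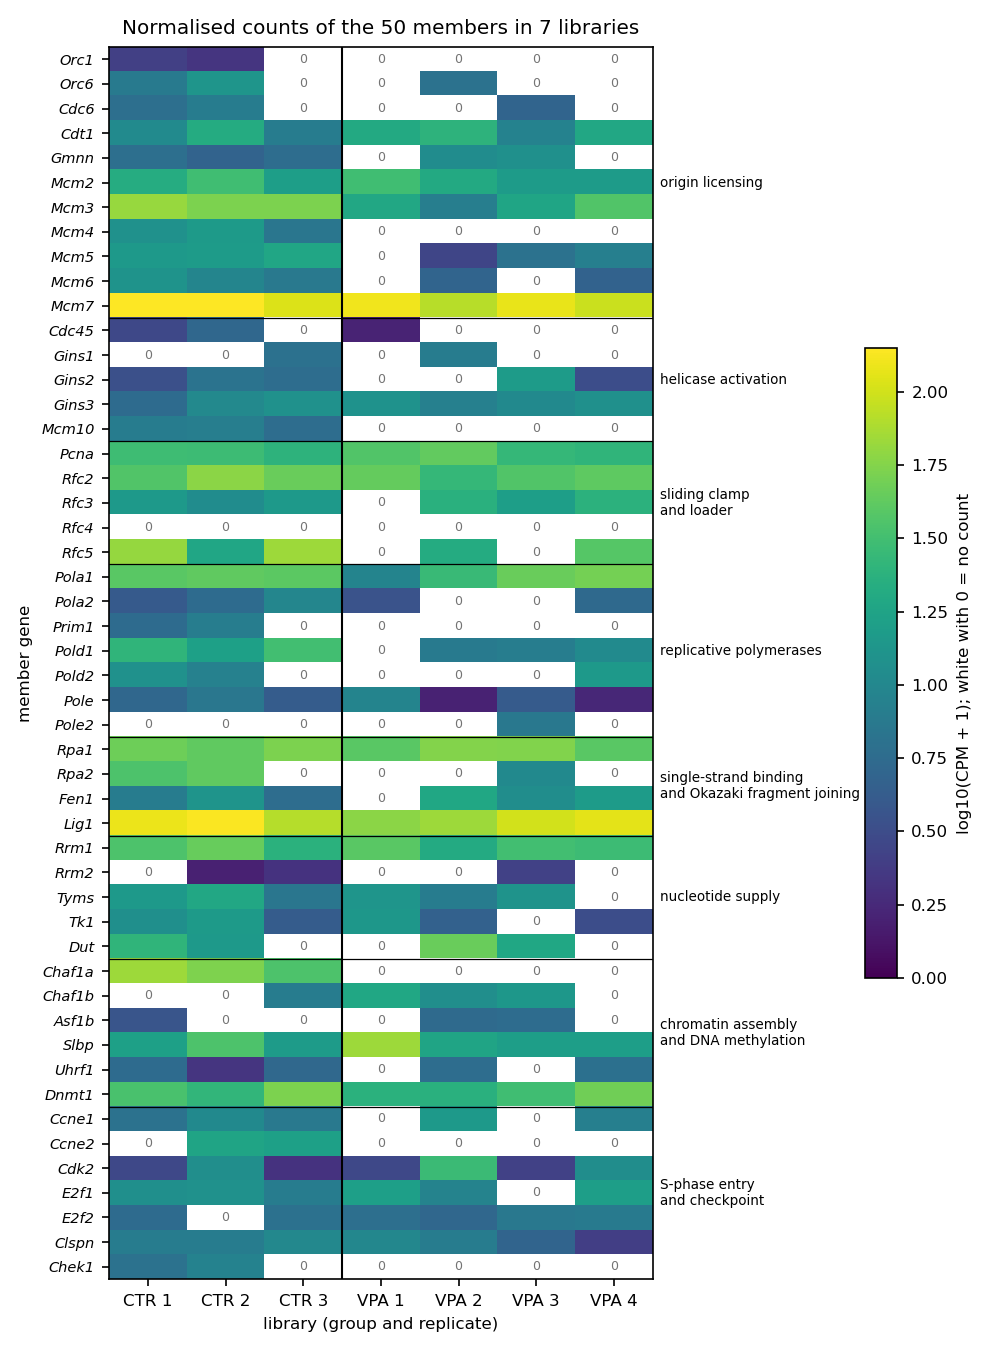
Level of each of the 50 members (rows, grouped by role) in each of the 7 libraries (columns), as log10(CPM + 1); white cells marked 0 had no count. Blank cells are more frequent in the VPA columns, where 16 to 27 members had no count against 6 to 12 in the CTR columns.

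Fewer members were seen at all in VPA. A count was found on 44, 44 and 38 members in CTR replicates 1 to 3 and on 23, 34, 31 and 30 members in VPA replicates 1 to 4. Part of such a gap can follow from depth, so the number expected at the smallest library total was computed for each library. It was 43.9, 43.4 and 37.9 members in CTR and 22.9, 33.7, 31 and 30 in VPA, so the groups did not overlap at that total either. The genes of the whole table expected there were also fewer in VPA, 14204 to 16678 against 17170 to 17862 in CTR. At that total the VPA mean was 70.4% of the CTR mean for the members and 87.9% for all genes. A total of 16 members had a count in every library, and 1, Rfc4 (a subunit of the clamp loader), had none in any. For 10 members (Orc1, Orc6, Mcm7, Cdc45, Gins2, Rfc4, Rfc5, Fen1, Tk1 and Ccne2) a gene overlapping on the other strand had at least 10% of the member's counts, and their counts are uncertain because the use of strand is not stated.

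There were 8 members with no count in any VPA library: Orc1, Mcm4, Mcm10, Rfc4, Prim1, Chaf1a, Ccne2 and Chek1. In CTR, 2 had none in any library (Rfc4 and Pole2). Among the 24 members with at least 10 counts in every CTR library, 2 were at 0 in all VPA libraries (Mcm4 and Chaf1a), which was so for 0.667% of all genes counted that well in CTR. With any count in every CTR library as the condition, it was 3 of 33 members (Mcm10 as well) and 2.05% of genes. The reverse, 0 in all CTR libraries, was found for 0 of the 13 members with at least 10 counts in every VPA library, and for 0% of such genes. With any count in every VPA library as the condition it was 0 of 17 members and 0.0399% of genes. With at least 10 counts in each CTR library used, leaving out CTR replicate 1 gave 3 of 26 members at 0 in all VPA libraries (0.995% of such genes), and leaving out CTR replicate 3 gave 5 of 36 (1.49%).

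Mcm3, a subunit of the helicase ring, had 64.7, 52.1 and 51.7 CPM in CTR and 18.6, 7.27, 17.4 and 35.7 CPM in VPA. All VPA libraries lay below the lowest CTR library, VPA replicate 4 nearest to it. The means were 56.2 ± 7.4 CPM (SD, n = 3) and 19.7 ± 11.8 CPM (SD, n = 4), 2.85-fold apart, and edgeR gave a log2 fold change of −1.53 (SE 0.48, adjusted p = 0.448). Mcm3 overlaps no other annotated gene, and every single library could be left out with the log2 fold change between −1.99 and −1.23.

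Mcm4 had 29, 72 and 11 counts in CTR, which is 11.2, 13.9 and 5.93 CPM, and 0 counts in each of the 4 VPA libraries. Its CTR mean was 5.58-fold the mean floor of 3 counts per library in VPA, a bound for counting error only. The fitted log2 change (−7.67, SE 1.40, edgeR adjusted p = 0.31) depends on the prior count and is no measure of size, and DESeq2 gave an adjusted p of 0.00464.

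Mcm5 had 13.6, 14.1 and 17.8 CPM in CTR and 0, 1.82, 5.52 and 7.43 CPM in VPA, a 4.10-fold difference of the means (edgeR log2 fold change −2.06, SE 1.04, adjusted p = 0.685). Mcm6 had 11.6, 8.49 and 6.46 CPM in CTR and 0, 3.94, 0 and 3.71 CPM in VPA, a 4.63-fold difference (edgeR log2 fold change −2.13, SE 1.28, adjusted p = 0.753). Both stood apart between the groups in every library. Their VPA counts were few, at most 10 for Mcm5 and 13 for Mcm6 in a library, and neither passed the test.

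The other subunits of the ring overlapped between the groups. Mcm2 had 20.5, 29.9 and 15.1 CPM in CTR and 30.1, 19.4, 14.2 and 14.1 CPM in VPA, with the highest library of each group at nearly the same level (edgeR log2 fold change −0.17, SE 0.42, adjusted p = 0.966). Mcm7, the most abundant member by mean CPM, had 139, 140 and 107 CPM in CTR and 125, 81.5, 119 and 94.4 CPM in VPA (edgeR log2 fold change −0.29, SE 0.20, adjusted p = 0.824). The 3′ end of Mcm7 overlaps Cops6 on the other strand, so its counts are among the uncertain ones.

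Within the ring the makeup of the transcripts differed. Mcm3 to Mcm6 together made up 38.8%, 34.3% and 40.2% of the summed Mcm2 to Mcm7 CPM in CTR, and 10.7%, 11.4%, 14.6% and 30.1% in VPA. The summed level of these 4 subunits was 101, 88.6 and 81.9 CPM in CTR and 18.6, 13, 22.9 and 46.8 CPM in VPA, without overlap. The sum of Mcm2 and Mcm7 was 159, 170 and 122 CPM in CTR and 155, 101, 133 and 108 CPM in VPA, with overlap. These 4 subunits were grouped after their values were seen, because each was lower without overlap, so their sum could not overlap. The shares and sums are therefore a description. They also rest on Mcm7, the largest part of the ring's sum, whose counts are among the uncertain ones. Mcm10, which binds the ring as it is activated, had 6.97, 7.33 and 4.85 CPM in CTR (18, 38 and 9 counts) and 0 in each VPA library. Its CTR mean was 3.44-fold the mean VPA floor.

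**Figure D2:**
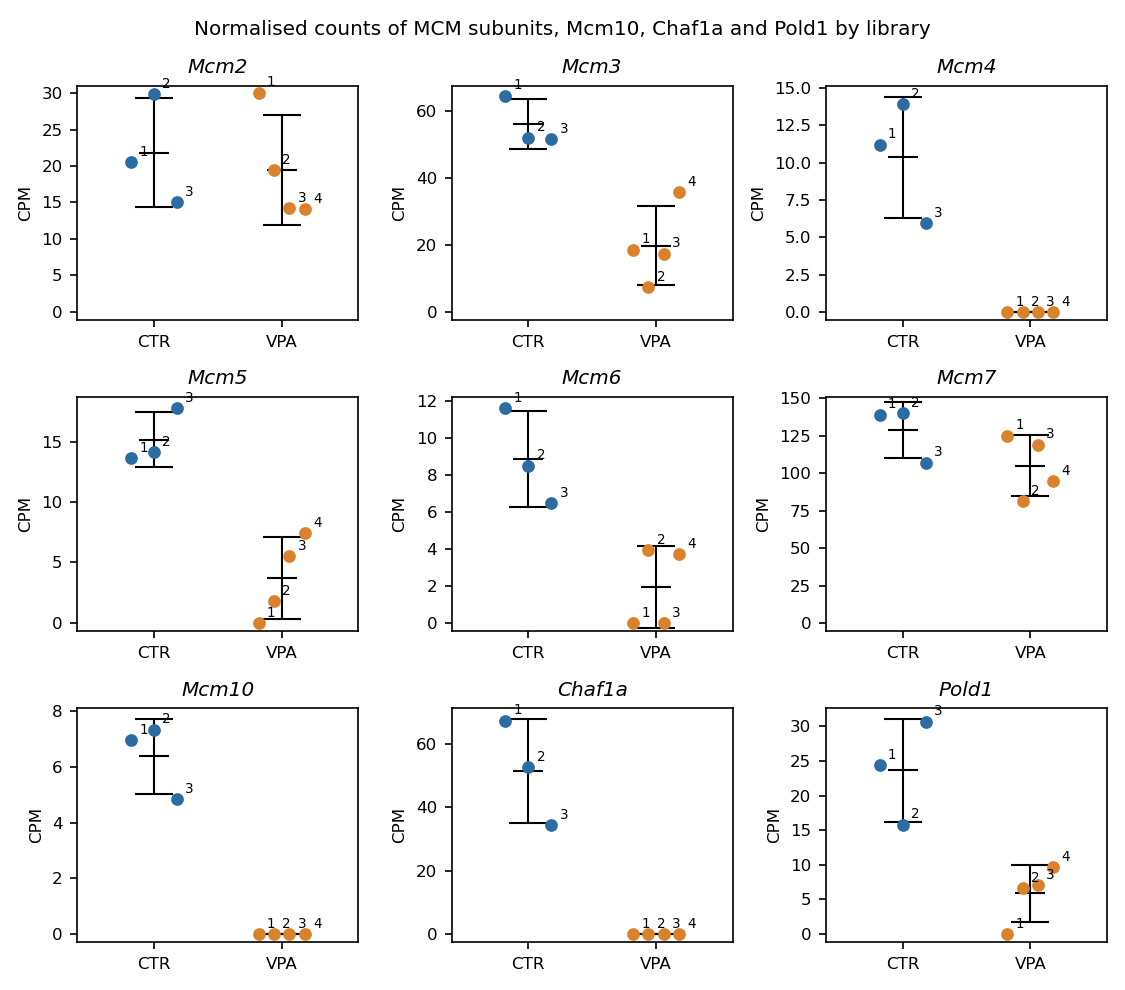
Normalised counts (CPM) of Mcm2 to Mcm7, Mcm10, Chaf1a and Pold1 in each library, on a linear axis of its own for each gene; points are libraries with their replicate number, bars are mean ± SD (CTR n = 3, VPA n = 4). For Mcm3, Mcm4, Mcm5, Mcm6, Mcm10, Chaf1a and Pold1 all VPA points lie below all CTR points, and for Mcm2 and Mcm7 they overlap.

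Chaf1a, which with Chaf1b brings histones H3 and H4 to newly made DNA, had 174, 273 and 64 counts in CTR and 0 in each of the 4 VPA libraries. In CTR this was 67.4, 52.7 and 34.5 CPM (51.5 ± 16.5, SD, n = 3), a mean 27.8-fold the mean VPA floor of 3 counts per library. Its edgeR p was 6.56e-05 with an adjusted p of 0.101. The adjusted p was 1.02e-10 in DESeq2 and 0.0106 in edgeR without the filter on low counts. Chaf1a (GRCm38, chr17:56040439-56072289, plus strand) overlaps Ubxn6 on the other strand, so that the 3′ ends of both lie in the same stretch, and Ubxn6 had no count in any library. Whether the counting used strand is not given in the sources used here, so the counts of Chaf1a are uncertain. Its partner Chaf1b had 0, 0 and 7 CPM in CTR and 17.9, 10.6, 12.6 and 0 CPM in VPA, the largest positive log2 fold change of the members tested (2.21, SE 1.93, edgeR adjusted p = 0.891), with overlap. Without CTR replicate 3, the 1 CTR library with a count, the fitted value was 7.70 (edgeR adjusted p = 0.856), which depends on the prior count.

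The sequences before the start sites were examined for motifs of the cell cycle, because many of these genes are known E2F targets. RefSeq promoters (GRCm38.p6, 250 bases before to 50 bases after the start) were matched for 43 of the 50 members, and Ccne2, Gins1, Gins2, Gmnn, Mcm4, Pole and Rfc2 were not matched. An E2F-type motif was taken as TTCCCGC, as TTCGCGC, as TTGCCGC or as TTGGCGC on either strand, and a CCAAT box as CCAAT on either strand. The E2F-type letters were present in 24 of 43 member promoters (55.8%), in 27 of 60 promoters of other pathway genes (45%), and in 9.69% of all 27025 promoters. The CCAAT box was present in 27 member promoters (62.8%), in 25 of the 60 of other pathway genes (41.7%) and in 37.9% of all promoters, and 3 of the 43 E2F-type matches in members overlapped a CCAAT box.

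Of the 6 members with a promoter that were lower without overlap, 5 held the E2F-type letters (Mcm3, Mcm5, Mcm6, Pold1 and Chaf1a, and not Mcm10), against 19 of the other 37 (51.4%), a description over few genes. A CCAAT box was held by 5 of these 6 and by 22 of the other 37 (59.5%). The promoters of 3 ring subunits that stood apart between the groups, of Chaf1a, and of the 2 ring subunits that did not are printed below, 5′ to 3′ on the strand of the gene. E2F-type matches on either strand are in capitals. They are from the reference strain, not from Balb/c. Their positions are chr1:20820263-20820562 (minus strand) for Mcm3, chr8:75109259-75109558 (plus) for Mcm5, chr1:128359656-128359955 (minus) for Mcm6, chr17:56040166-56040465 (plus) for Chaf1a, chr6:88898731-88899030 (minus) for Mcm2 and chr5:138171834-138172133 (minus) for Mcm7.
Mcm3: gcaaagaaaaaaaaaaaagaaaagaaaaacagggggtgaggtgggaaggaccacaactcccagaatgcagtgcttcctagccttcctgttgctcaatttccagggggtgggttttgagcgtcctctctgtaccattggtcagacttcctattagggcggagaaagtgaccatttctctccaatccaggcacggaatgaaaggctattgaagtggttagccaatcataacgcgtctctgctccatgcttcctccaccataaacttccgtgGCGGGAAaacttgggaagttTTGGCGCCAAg
Mcm5: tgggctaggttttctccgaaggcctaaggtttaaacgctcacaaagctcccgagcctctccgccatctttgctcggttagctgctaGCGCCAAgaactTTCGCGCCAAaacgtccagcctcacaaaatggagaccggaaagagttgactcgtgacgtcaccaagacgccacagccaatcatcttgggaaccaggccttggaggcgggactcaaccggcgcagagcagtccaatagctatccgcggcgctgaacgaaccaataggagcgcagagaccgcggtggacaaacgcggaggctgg
Mcm6: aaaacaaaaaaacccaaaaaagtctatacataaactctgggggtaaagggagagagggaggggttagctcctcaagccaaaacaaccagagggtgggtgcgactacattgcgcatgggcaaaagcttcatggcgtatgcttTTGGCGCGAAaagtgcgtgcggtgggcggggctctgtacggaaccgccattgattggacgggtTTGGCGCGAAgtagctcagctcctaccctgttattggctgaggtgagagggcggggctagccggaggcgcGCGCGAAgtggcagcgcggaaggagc
Chaf1a: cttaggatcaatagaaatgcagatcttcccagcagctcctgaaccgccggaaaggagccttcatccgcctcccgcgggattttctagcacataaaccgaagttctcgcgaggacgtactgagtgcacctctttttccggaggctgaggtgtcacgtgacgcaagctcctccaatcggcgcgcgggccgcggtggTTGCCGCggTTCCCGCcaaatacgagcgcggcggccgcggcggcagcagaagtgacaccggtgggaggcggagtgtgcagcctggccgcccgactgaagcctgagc
Mcm2: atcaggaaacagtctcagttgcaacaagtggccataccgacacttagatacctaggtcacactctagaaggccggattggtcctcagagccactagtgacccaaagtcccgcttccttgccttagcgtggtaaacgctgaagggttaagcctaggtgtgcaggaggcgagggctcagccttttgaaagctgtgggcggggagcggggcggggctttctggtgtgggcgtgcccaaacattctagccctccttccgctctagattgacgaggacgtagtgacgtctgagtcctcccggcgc
Mcm7: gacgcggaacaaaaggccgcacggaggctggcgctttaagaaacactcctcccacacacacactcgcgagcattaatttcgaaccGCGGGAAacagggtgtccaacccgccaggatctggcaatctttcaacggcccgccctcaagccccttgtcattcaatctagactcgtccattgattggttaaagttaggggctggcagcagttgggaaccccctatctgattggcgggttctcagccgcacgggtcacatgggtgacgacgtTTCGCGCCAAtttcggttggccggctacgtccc

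Mcm6 held 5 overlapping or separate matches in 3 stretches, Mcm3 and Mcm5 3 matches in 2 stretches each, and Chaf1a 2. Mcm7, whose level overlapped between the groups, held 3 matches in 2 stretches, and Mcm2 held 0, so among these genes the letters were found on both sides. A match is no evidence of a bound factor, and its absence says only that these letters are not in the window.

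**Figure D3:**
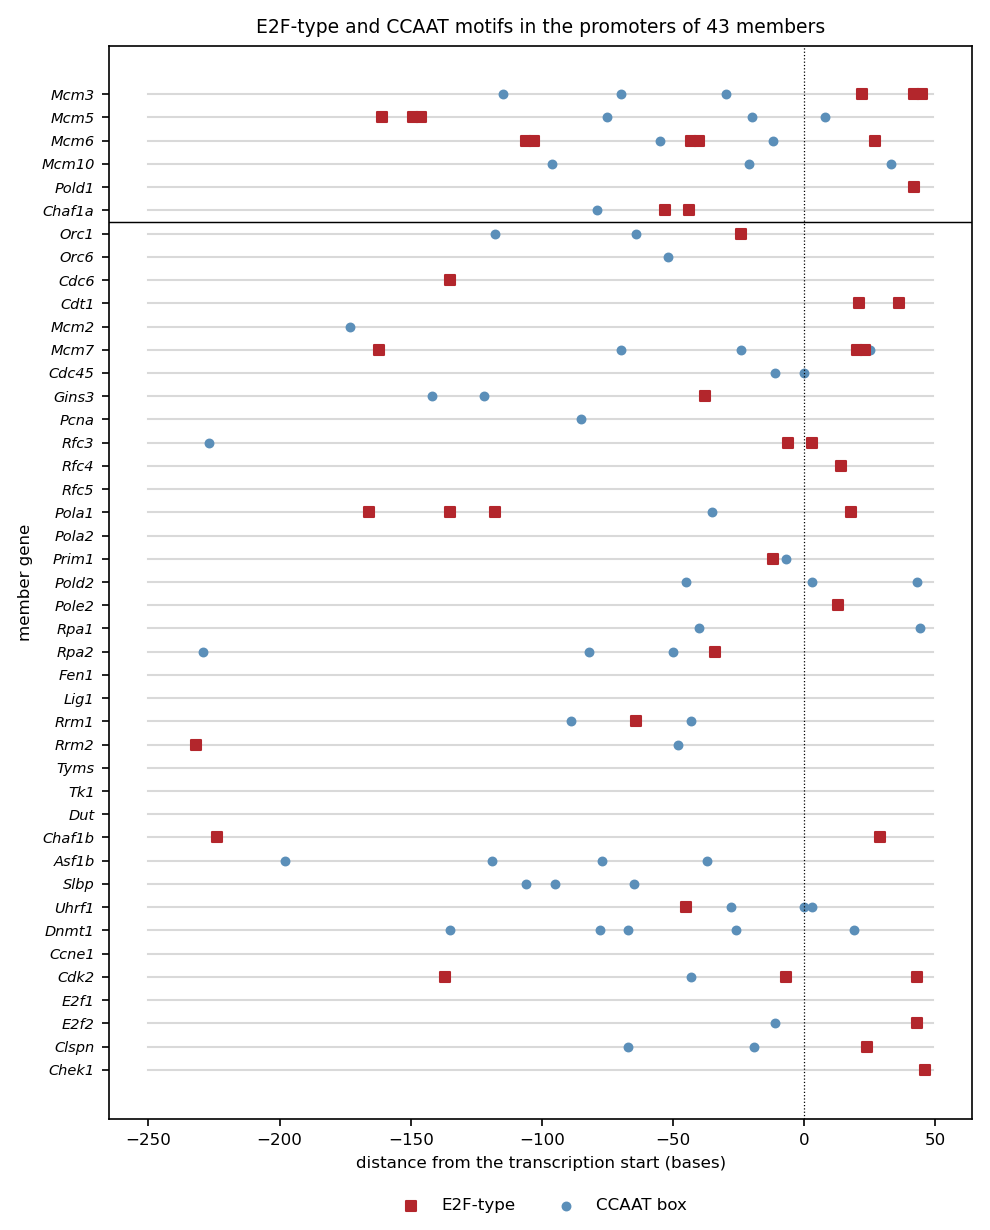
Positions of E2F-type (squares) and CCAAT (circles) matches in the promoters of 43 members, in bases from the transcription start (0, dotted); each grey line is the window of 1 gene, and the 6 genes above the horizontal line were lower in VPA without overlap. An E2F-type match is held by 5 of these 6 and by 19 of the other 37.

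Of the remaining licensing genes, only Cdt1 had a count in every library. Orc6, a subunit of the origin recognition complex, had 6.59, 12.2 and 0 CPM in CTR and 0, 5.45, 0 and 0 CPM in VPA (edgeR log2 fold change −2.0, SE 1.81, adjusted p = 0.898). Cdt1 had 9.69, 19.9 and 7 CPM in CTR and 19.2, 23.3, 7.89 and 18.6 CPM in VPA, the 1 tested licensing gene with a positive value (log2 fold change 0.49, SE 0.56, edgeR adjusted p = 0.927). Orc1 had 0 to 6 counts in CTR and 0 in VPA, Cdc6 0 to 36 and 0 to 5, and Gmnn 9 to 20 and 0 to 33, all below the filter. Over the 11 licensing genes, 7 of 8 tested were below 0 with a median of −1.76.

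Of the genes that turn the ring into a helicase only Gins3, a GINS subunit, was tested. It had 4.65, 9.26 and 11.3 CPM in CTR and 11.5, 7.57, 9.47 and 11.1 CPM in VPA, with overlap (log2 fold change 0.23, SE 0.56, edgeR adjusted p = 0.966). Cdc45, Gins1 and Gins2 each had a 0 in at least 2 VPA libraries, with at most 29 counts in any library.

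The sliding clamp and its loader overlapped between the groups. Pcna had 29.4, 28.6 and 23.7 CPM in CTR and 35.8, 42.1, 26 and 24.5 CPM in VPA (log2 fold change 0.24, SE 0.29, edgeR adjusted p = 0.936). Rfc2, the most abundant of this role by mean CPM over all libraries, had 36, 58.7 and 44.7 CPM in CTR and 42.9, 26.1, 35.5 and 40.1 CPM in VPA (log2 fold change −0.37, SE 0.27, edgeR adjusted p = 0.847). In CTR alone Rfc5 had the higher mean (49.5 against 46.5 CPM). Pcna, used widely as a marker of S phase, thus overlapped between the groups, and its pseudogene Pcna-ps2 had 24 counts over all libraries. Rfc3 and Rfc5 had counts in every CTR library and a 0 in 1 and 2 VPA libraries, with log2 fold changes of 0.30 (SE 1.07) and −1.78 (SE 1.34).

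Among the polymerases Pold1 stood apart. Pold1 had 24.4, 15.8 and 30.7 CPM in CTR and 0, 6.66, 7.1 and 9.66 CPM in VPA, 4.04-fold apart in the means without overlap (log2 fold change −2.01, SE 0.95, edgeR adjusted p = 0.65). Pola1, the catalytic subunit of the polymerase that starts each fragment and the most abundant of its role, had 38.4, 40.9 and 39.9 CPM in CTR and 8.32, 27.6, 44.2 and 49 CPM in VPA. The CTR values of Pola1 were tight and the VPA values spread to both sides of them (log2 fold change −0.31, SE 0.52, edgeR adjusted p = 0.953). Pold2, the second subunit of polymerase delta, had 11.2, 7.72 and 0 CPM in CTR and 0, 0, 0 and 13.4 CPM in VPA. Prim1, the primase, had 12, 37 and 0 counts in CTR and 0 in VPA, and Pole, the catalytic subunit of polymerase epsilon, was counted in every library (3.23 to 6.17 CPM in CTR, 0.606 to 8.32 in VPA).

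Lig1, the ligase that seals Okazaki fragments, had 121, 135 and 79.7 CPM in CTR and 58.9, 67.2, 100 and 115 CPM in VPA, with overlap (log2 fold change −0.40, SE 0.29, edgeR adjusted p = 0.847). Rpa1, the large subunit of the single-strand binding complex, had the log2 fold change nearest to 0 of all members tested, with 46.5, 41.3 and 52.3 CPM in CTR and 39, 55.1, 54.5 and 38.6 CPM in VPA (log2 fold change 0.01, SE 0.22, edgeR adjusted p = 0.999). Rpa2, its partner, had 34.1, 40.9 and 0 CPM in CTR and 0, 0, 9.47 and 0 CPM in VPA (log2 fold change −3.50, SE 1.97, edgeR adjusted p = 0.728). Rpa1 was counted in every library and Rpa2 in 3 of 7, and CTR replicate 3 was as empty of Rpa2 as most VPA libraries. Fen1 had 4.85 to 12 CPM in CTR and 0 to 17.9 in VPA.

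For nucleotide supply, Rrm1, the large subunit of ribonucleotide reductase, had 34.5, 43.6 and 22.6 CPM in CTR and 39, 19.7, 30.8 and 29 CPM in VPA (log2 fold change −0.19, SE 0.34, edgeR adjusted p = 0.953). Its S-phase partner Rrm2 had at most 3 counts in any library of either group. Tyms, Tk1 and Dut, which make thymidylate or keep uracil out of DNA, had log2 fold changes of −0.70 (SE 1.06), −0.99 (SE 1.19) and 0.31 (SE 1.80), each with a 0 in at least 1 VPA library. None of the 4 tested genes of this role stood apart between the groups.

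In the chromatin role Dnmt1, the maintenance DNA methyltransferase, had 33.3, 25.1 and 51.7 CPM in CTR and 22.4, 22.1, 30 and 47.6 CPM in VPA (log2 fold change −0.27, SE 0.39, edgeR adjusted p = 0.945). Slbp, which binds histone mRNA, had 15.5, 34.3 and 14 CPM in CTR and 67.2, 17, 15 and 14.9 CPM in VPA, with 1 high VPA library. Asf1b and Uhrf1 were counted too little to be tested (at most 16 counts in a library).

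Of the genes for S-phase entry, E2f1 was the most abundant by mean CPM over the 7 libraries. By group mean, Ccne2 was higher in CTR (10.9 against 9.68 CPM) and Cdk2 in VPA (10.4 against 9.6 CPM). E2f1 had 10.8, 11.2 and 7 CPM in CTR and 15.4, 8.18, 0 and 14.9 CPM in VPA (log2 fold change −0.02, SE 1.06, edgeR adjusted p = 1.0). Cyclin E1 (Ccne1) had 5.42 to 9.45 CPM in CTR and 0, 13.3, 0 and 7.43 CPM in VPA, and its kinase Cdk2 had 1.08 to 10.6 CPM in CTR and 1.58 to 27.9 in VPA (log2 fold change 1.17, SE 1.24). Clspn, a checkpoint adaptor, had 6.95 to 9.16 CPM in CTR and 1.49 to 8.96 in VPA (log2 fold change −0.51, SE 0.77). Ccne2 had 0, 88 and 29 counts in CTR and Chek1, the checkpoint kinase, 14, 41 and 0, and both were at 0 in all VPA libraries. E2f2 had 0 to 5.39 CPM in CTR and 4.24 to 6.69 in VPA.

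**Figure D4:**
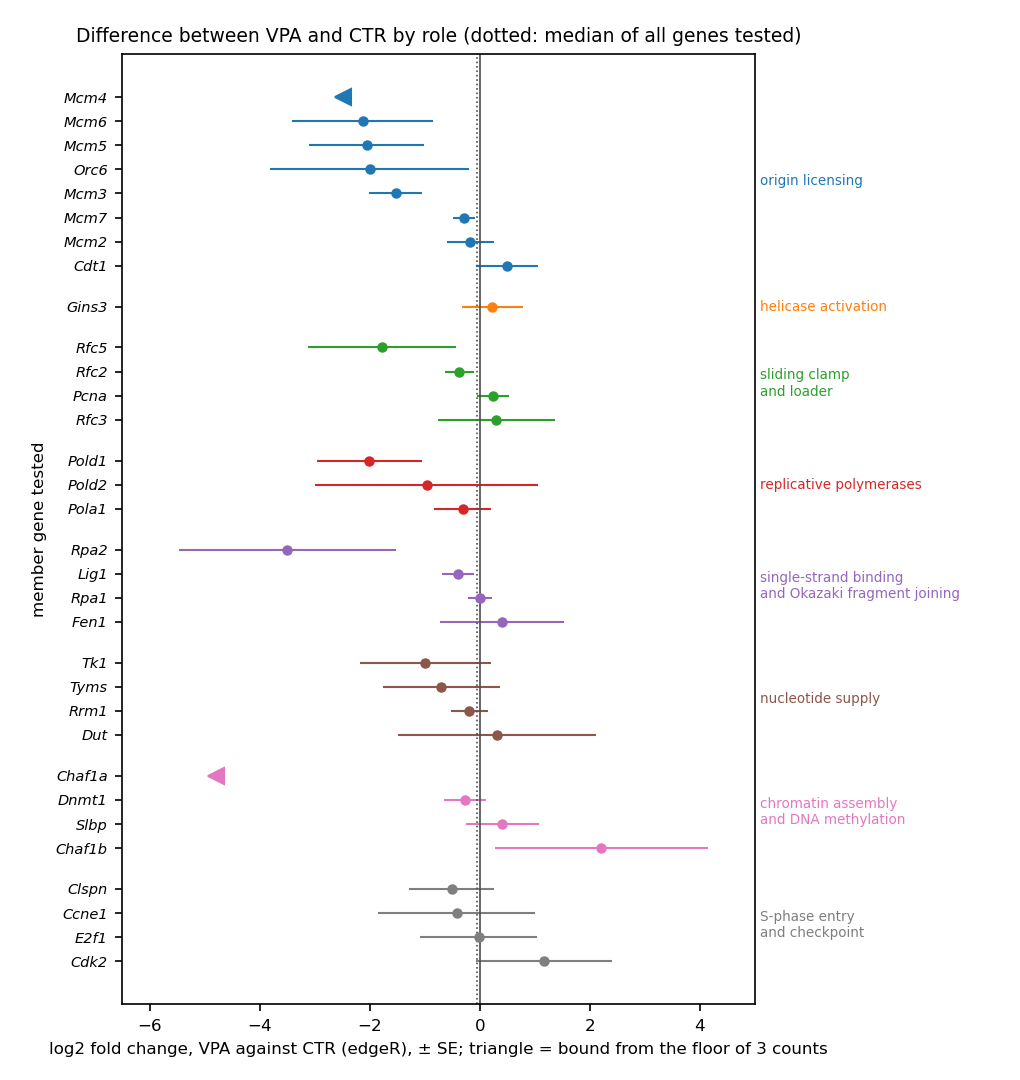
Log2 fold change of VPA against CTR (edgeR, ± SE) of the 32 members tested, by role; triangles give the bound from the floor of 3 counts for Mcm4 and Chaf1a, which had no VPA count, and the dotted line is the median of all genes tested (−0.06). The lowest points among licensing genes are Mcm4, Mcm6, Mcm5, Orc6 and Mcm3, and most other roles lie on both sides of 0.

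The 75 other genes of the same pathway were listed by role. Of these, 54 were tested, 32 below 0 and 22 above, with a median log2 fold change of −0.16. At an unadjusted p under 0.05 in edgeR 4 were lower (Poldip2, Pole4, Ssrp1 and Top1) and 2 higher (Cmpk1 and Rb1), beside 4.62% and 3.65% of all genes tested, and 0 had an adjusted p under 0.05, also in DESeq2. Pole4, a small subunit of polymerase epsilon, had 59.3, 87.4 and 55.5 CPM in CTR and 34.6, 37, 23.7 and 49.8 CPM in VPA (log2 fold change −0.90, SE 0.29, edgeR adjusted p = 0.479). Top1, a topoisomerase and the most abundant of the list, had a log2 fold change of −0.37 (SE 0.15). The retinoblastoma gene Rb1 had 6.97, 8.49 and 6.46 CPM in CTR and 27.5, 20.3, 16.6 and 7.43 CPM in VPA (log2 fold change 1.29, SE 0.55, edgeR adjusted p = 0.600), which overlapped in 1 VPA library. Its relative Rbl1, too scarce to be tested, had 5.39 to 11.2 CPM in CTR and 0 to 3.71 in VPA.

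Genes of mitosis, the phase that follows replication, were mostly below 0 as well. Of 24 listed, 10 were tested, 8 below 0, with a median log2 fold change of −1.45, and edgeR gave 3 lower ones an unadjusted p under 0.05 (Top2a, Mki67 and Cenpf; 4.62% of all genes tested) with 0 at an adjusted p under 0.05. Mki67 and Cenpf passed the filter on low counts through the CTR libraries, with 0 VPA libraries over its minimum, so this count is a description. DESeq2 gave 2 of the list an adjusted p under 0.05, both lower (Top2a, 0.0131, and Ube2c, 0.0375, the latter below edgeR's filter), where 0.754% of genes were called lower. The 2 tested genes above 0 were Birc5 (log2 fold change 0.40) and Cenpa (0.45). Top2a, a topoisomerase of dividing cells, had 47.3, 53.6 and 35 CPM in CTR and 3.84, 14.8, 13.4 and 6.69 CPM in VPA (log2 fold change −2.21, SE 0.48, edgeR adjusted p = 0.289). The proliferation marker Mki67 had 23.2, 13.9 and 27.5 CPM in CTR and 4.48, 0, 0 and 0 CPM in VPA (log2 fold change −4.24, SE 1.43, edgeR adjusted p = 0.503). The summed level of the list was 181 to 237 CPM in CTR and 49.8 to 113 CPM in VPA.

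Markers of the cell types in a slice were measured beside the members. The 10 stellate cell markers were all below 0 (median log2 fold change −0.99), with summed levels of 1534 to 3079 CPM in CTR and 838 to 1122 CPM in VPA, and 3 of them (Col1a1, Col1a2 and Col3a1) were lower in edgeR with p under 0.05 before adjustment, beside 4.62% of all genes tested, with 0 at an adjusted p under 0.05. DESeq2 gave adjusted p-values of 4.39e-07 for Col1a1 and 0.000539 for Col1a2. In CTR, Col1a1, Col1a2 and Col3a1 had means of 710, 546 and 587 CPM, within a mean stellate sum of 2385 CPM. The other stellate markers (Lrat, Des, Reln, Pdgfrb, Acta2, Tagln and Lox) each overlapped between the groups. Of the 7 endothelial markers tested 6 were below 0 (median −0.61), Tek was at 0 in all VPA libraries and passed the filter through CTR (DESeq2 adjusted p = 9.61e-05), Tek, Cdh5 and Ptprb were lower without overlap beside 7.38% of all genes tested, Clec4g was at 0 in all but VPA replicates 2 and 4, and the sums of 271 to 318 CPM in CTR and 103 to 279 CPM in VPA overlapped in 1 library. Hepatocyte markers (10 of 10 tested, median 0.51) summed to 5893 to 17371 CPM in CTR and 4179 to 14827 in VPA. Of these, 1 (Cyp3a11) was higher in VPA without overlap, beside 4.46% of all genes tested, and 0 were lower without overlap. Macrophage markers (5 of 8 tested, median 0.37) summed to 228 to 287 and 256 to 400 CPM, with Adgre1 and Marco at 0 in every library and Vsig4 in all but CTR replicate 2. Cholangiocyte markers (4 of 6 tested, median 0.11) summed to 266 to 603 and 253 to 728 CPM, with Krt19 at 0 in all but VPA replicates 2 and 4 and Cldn7 in all but CTR replicates 1 and 2. Lymphocyte markers (1 of 6 tested, Ptprc, log2 fold change 0.48) summed to 10.8 to 19.3 and 6.97 to 34.7 CPM, with Cd8a, Cd79a and Nkg7 at 0 in every library and Ms4a1 in all but CTR replicate 2. The summed levels of the stellate cell and mitosis lists did not overlap between the groups, with lower sums in VPA, and those of the endothelial list overlapped in 1 library. The part of these lists in the members' values was not tested.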

How the data were processed

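The transcriptome of mouse PCLS was measured on culture day 3 in 3 CTR and 4 VPA libraries. The authors prepared QuantSeq 3′ libraries, trimmed single-end reads, mapped them to GRCm38.p6 (mm10) with STAR and used StringTie, per the paper and the submitters' processing notes. They deposited raw counts of reads per Ensembl gene without normalization; the counting program, its use of strand and its treatment of multimapping reads are not given in the sources used here. Reads of a gene and of an overlapping gene on the other strand therefore cannot be told apart for 20 members. Of 55487 genes, 26086 had a count.

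Counts were tested in R 4.3.3 with edgeR 4.0.16 (TMM, filterByExpr, robust quasi-likelihood fit, condition as the only term) over 10876 genes. P-values were adjusted by Benjamini-Hochberg and called under 0.05. DESeq2 1.42.0, which the study names, and limma 3.58.1 (voom) were alternatives, besides other normalizations, filters, replicate blocks and leaving out each library. The code was tested on data simulated for VPA against CTR with known log2 changes of 2. At the estimated dispersion it tested 10049 genes, recovered 94 of 194 changed ones and called 2 unchanged genes.

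The members and lists were chosen with earlier results of these data known. Members given with every library's value are those with an unadjusted p under 0.05, those without overlap, the most abundant of each role, the largest change in each direction, and the Mcm2 to Mcm7 genes; Orc6, Cdt1, Pcna, Pold2, Rpa1, Rpa2, Slbp and the counts of members below the filter were added after their values were seen. Other pathway and mitosis genes are named where the unadjusted p is under 0.05 or they are the most abundant. Rbl1, Birc5, Cenpa and Ube2c were added outside this rule, as were the cell type markers named with a higher p or no p. Depth limits precision, and floors cover counting error only. The qPCR, protein and human slice experiments were not analysed here.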

Additional observations from a re-analysis of the deposited data

Results flagged for a closer look

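In the VPA group 34 measures were examined for a library far from the other 3 by Dixon's test at 95%, and 5 stood out. Chance flags about 1 in 20 groups, a rate that does not apply to the 3 genes with 3 values of 0, where any other value stands out by construction. Orc6 had 5.45 CPM in VPA replicate 2, Pold2 had 13.4 CPM in VPA replicate 4 and Rpa2 had 9.47 CPM in VPA replicate 3, each with 0 in the other 3 VPA libraries. Slbp had 67.2 CPM in VPA replicate 1 against 14.9, 15 and 17 CPM in the others. The total count of VPA replicate 2 was 3102450, against 1400887, 1452557 and 1515954. These 5 lie in 4 libraries, so no single library holds them all.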

How the results depend on the processing

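The members' median log2 fold change was negative under all alternatives run, from −0.55 (replicate number as a block) to −0.19 (without members that overlap a gene on the other strand, an alternative chosen after seeing the data), against −0.34, and −0.43 to −0.20 on leaving out a library (−0.20 without CTR replicate 2). The median of all genes moved as well, to −0.14 in limma-voom and with the replicate number block and −0.15 without the filter, against −0.06. Members with an adjusted p under 0.05 numbered 0 in edgeR, 2 in DESeq2 and 1 without the filter. Members lower at an unadjusted p under 0.05 numbered 3 of 32 (4.62% of all genes), but 7 of 49 in DESeq2 (2.69%), 8 of 49 without the filter (4.88%) and 1 of 13 with at least 10 counts in every library (6.22%), a filter that removes members at 0 in VPA. Leaving out 1 library gave 3 to 6 lower (5 of 40 without CTR replicate 3, 3.17% of genes; 6 of 36 without VPA replicate 1, 4.24%) and 0 to 1 higher (1 without CTR replicate 3). Members lower without overlap numbered 6, but 1 with at least 10 counts in every library and 6 to 14 on leaving out a library (14 of 40 tested without CTR replicate 3, where the share of all genes was 10.3% in place of 7.38%), and those higher without overlap 0 to 1 (1 without VPA replicate 1 or VPA replicate 4). Members at 0 in all VPA libraries with at least 10 counts in each CTR library numbered 2, and 3 without CTR replicate 1 or 5 without CTR replicate 3. Of 265 alternative values of 16 named members 253 kept direction and side of the threshold. Leaving out 1 library turned the sign of 6, all near 0 and none past the threshold, with log2 fold changes of −0.46 to 0.12 for Mcm2, −0.07 to 0.47 for Gins3, −0.59 to 0.01 for Pola1, −0.43 to 0.04 for Rrm1, −0.57 to 0.03 for Dnmt1 and −0.33 to 0.38 for E2f1. Chaf1b ranged from 1.56 to 7.70 (without CTR replicate 3). Mcm4 and Chaf1a passed in DESeq2 (log2 −6.61 and −8.92), and Chaf1a without the filter (−10.01). Beyond these constructions the cause was not tested.

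Same-numbered libraries did not all reach the correlation of 0.1 used as the limit for pairing (correlations −0.0539 to 0.107 for replicate numbers, 0.0256 to 0.107 for slice culture numbers), so the check did not pair them; what the numbers stand for is not given, and a shared origin was not tested otherwise. With a replicate block the median was −0.55 (replicate number) or −0.44 (slice culture). At an unadjusted edgeR p under 0.05, 2 of 32 members (5.63% of genes) and 3 of 32 (4.67%) were lower, with 0 higher. With either block 0 members had an adjusted p under 0.05.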
